A study of Mus musculus with 24 samples.

Results

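The 8 genes described here, *Emx1*, *Emx2*, *Eomes*, *Tbr1*, *Neurod2*, *Neurod6*, *Bcl11b* and *Fezf2*, encode transcription factors of the excitatory neuron lineage of the pallium, the dorsal part of the telencephalon that forms the cortex. They were taken by name from the 54446 genes counted in 24 RNA-seq libraries, and all 8 were found. The libraries came from 12 mouse embryos collected at stage E14.5, 3 for each combination of sex and genotype. From each embryo 1 library was made of the secondary prosencephalon (SP, the telencephalon with the hypothalamus) and 1 of the diencephalon, midbrain and hindbrain together (DMH). Control embryos were Tfap2b+/+ and mutant embryos were Tfap2b-/-, both from crosses of heterozygous mice. The mutant allele carries a neomycin resistance cassette inside an exon of *Tfap2b*, which encodes the transcription factor AP-2 beta, and it is present in every cell of the embryo. The sample labels name no further allele or treatment. The study's text is not uniform, since its sequencing methods call the mutants Vgat-Tfap2b-/- and a legend calls them Tfap2b+/-, and the groups here follow the labels. The study set female mutant 3 apart after a principal component analysis, and it was left out of the edgeR and DESeq2 fits below. It is kept in the levels and in the correlations across libraries, which are also given without it.

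Cortical excitatory neurons arise from radial glia, either directly or through intermediate progenitors, and then take on layer and projection identities. *Emx1* and *Emx2* are homeobox genes of dorsal radial glia. *Eomes* (Tbr2) marks intermediate progenitors, *Tbr1* marks early postmitotic neurons, *Neurod2* and *Neurod6* accompany neuronal differentiation, and *Fezf2* and *Bcl11b* (Ctip2) specify deep-layer neurons that project below the cortex. *Bcl11b* is also known from striatal neurons and *Emx2* from the diencephalon, so neither is restricted to the pallium.

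Between 24.7 and 66.8 M fragments (M, mega) per library fell on genes (median 32.1 M), and levels are given as CPM, the counts of a gene per M counts of its library, after TMM normalization over the 24 libraries. A count of 3 corresponded to 0.0449 to 0.121 CPM. *Tfap2b* itself was at 277 to 438 CPM in the 6 DMH controls and at 50.5 to 55.6 CPM in the 6 DMH mutants, with no overlap. In SP it was at 2.78 to 4.90 CPM in the 12 libraries of both genotypes. Several libraries stood apart. Female control 2 carried Y-linked transcripts in both of its libraries (120 and 135 CPM over 4 genes) and *Xist* at 0.0894 CPM or less, against its label. In DMH, 4 libraries had a low sum of 11 caudal *Hox* genes, which mark the hindbrain behind its front end. These were female control 1, female mutant 1, female mutant 2 and male mutant 2, at 0.0760 to 18.4 CPM against 308 to 371 CPM in the other 8. Female mutant 3 alone had skeletal muscle (549 CPM against 3.10 to 4.51) and cartilage transcripts (1672 CPM against 63.9 to 86.9) in DMH. Male SP mutant 3 was low in choroid plexus (29.2 CPM against 194 to 509 in the other 11 SP libraries) and meninges and mesenchyme transcripts (137 CPM against 443 to 673).

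All 8 factors were much higher in SP than in DMH. The sum of 8 diencephalon and midbrain markers ran the other way, with 57.1 to 248 CPM in SP and 829 to 1871 CPM in DMH. The 2 SP libraries at the top of that range were female mutant 3 (248 CPM) and male control 1 (221 CPM), and the other 10 were at 57.1 to 103 CPM.

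**Figure D1:**
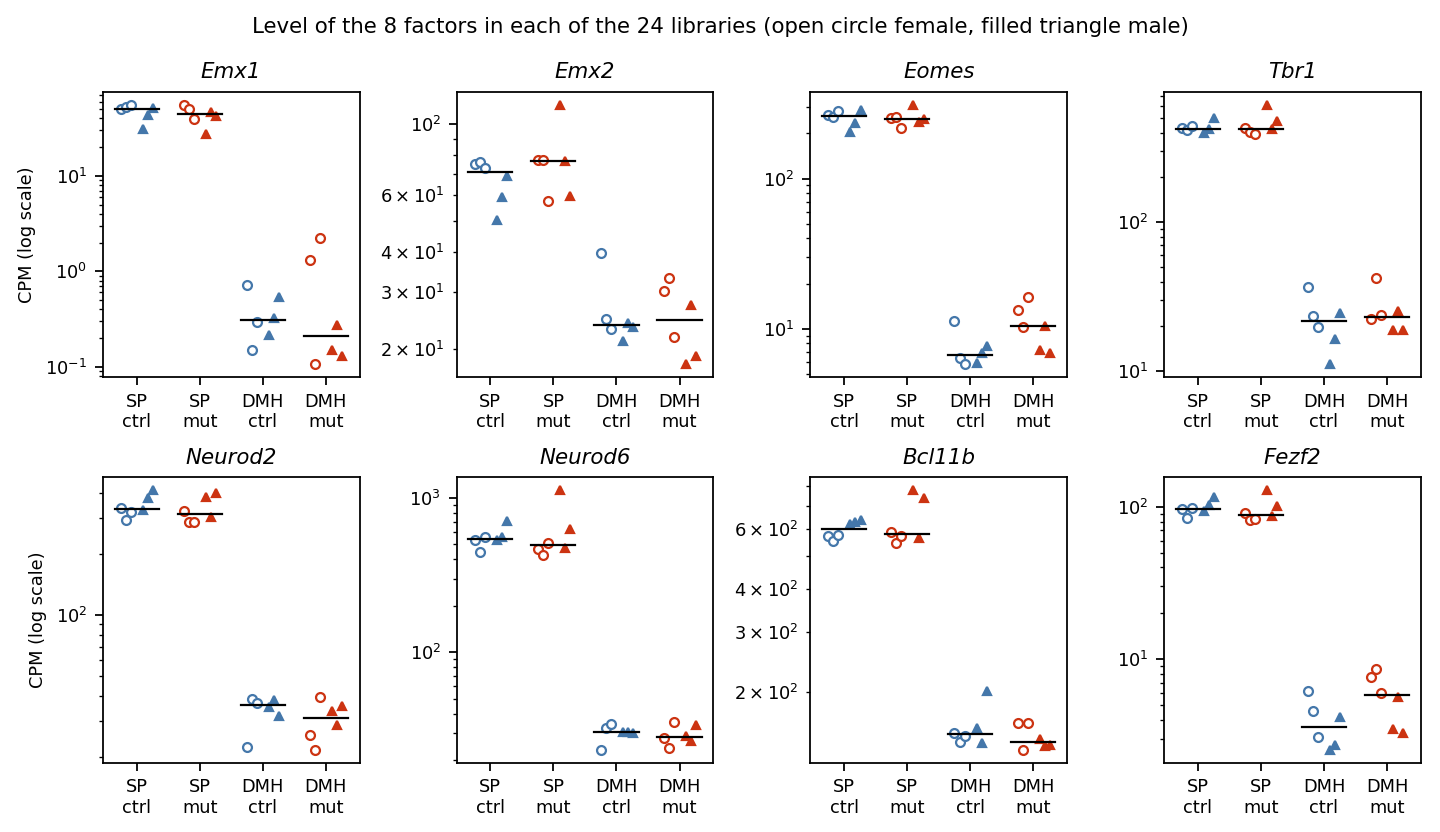
CPM on a log axis of each of the 8 factors in each library, grouped by region and genotype, with the median of each group as a line (6 libraries per group). For every factor all 12 SP libraries lie above all 12 DMH libraries, and controls and mutants overlap within each region.

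Of the progenitor factors, *Emx1* (chr6:85187438-85204462, plus strand, GRCm38) was between 27.3 and 55.6 CPM in the 12 SP libraries, with a median of 48.4 CPM. In DMH it was close to the detection floor, from 0.107 to 2.21 CPM with a median of 0.285 CPM, and the lowest of these libraries had 3 counts. The highest DMH values belonged to female mutant 3 (2.21 CPM) and female mutant 1 (1.32 CPM). *Emx2* (chr19:59458372-59465357, plus strand) was between 50.4 and 115 CPM in SP, with a median of 74.0 CPM, and between 17.9 and 39.5 CPM in DMH, with a median of 23.6 CPM. The 2 genes are paralogs, yet within an embryo *Emx1* in DMH was at 0.212 to 5.67% of its SP level and *Emx2* at 15.6 to 52.6%, so the ranges over 12 embryos did not overlap.

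*Eomes* (chr9:118478212-118486132, plus strand) was between 203 and 310.2 CPM in SP, with a median of 254 CPM, and between 5.81 and 16.4 CPM in DMH, with a median of 7.45 CPM. Within an embryo its DMH level was 2.06 to 7.58% of that in SP. Its highest DMH value came from female mutant 3.

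Among the factors of postmitotic neurons, *Tbr1* (chr2:61802930-61814114, plus strand) had a median of 424 CPM in SP (390.1 to 615 CPM) and of 22.95 CPM in DMH (11.2 to 42.0 CPM). *Neurod2* (chr11:98325415-98329648, minus strand) had a median of 326 CPM in SP (287 to 411 CPM) and of 34.5 CPM in DMH (21.7 to 39.4 CPM). *Neurod6* (chr6:55677822-55681263, minus strand) had a median of 534 CPM in SP (429 to 1121 CPM) and of 30.2 CPM in DMH (23.3 to 35.3 CPM). These neuronal differentiation factors were therefore an order of magnitude lower in DMH without being absent there. *Fezf2* (chr14:12342094-12348189, minus strand) had a median of 95.4 CPM in SP (81.7 to 129 CPM) and of 4.37 CPM in DMH (2.54 to 8.59 CPM). *Bcl11b* (chr12:107910403-108003602, minus strand) had a median of 582 CPM in SP (544 to 777 CPM) and of 147 CPM in DMH (135 to 201 CPM). Its DMH level was 18.7 to 31.5% of the SP level of the same embryo, whereas *Fezf2* was at 2.66 to 10.5%, *Tbr1* at 2.80 to 10.4%, *Neurod6* at 2.57 to 7.17% and *Neurod2* at 6.67 to 13.8%.

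The difference between regions was tested in 22 libraries with edgeR's quasi-likelihood test, and a gene was called where its false discovery rate (FDR, by Benjamini and Hochberg) was below 0.05 and its log2 fold change beyond 1. All 8 factors fell in DMH relative to SP, against 986 of 18317 genes tested, or 5.38%. No DMH library reached the lowest SP library for any of the 8, a pattern found in this direction for 11.2% of the genes tested. The log2 fold change was -6.99 for *Emx1* (SE 0.24, adjusted p = 1.55e-14 in edgeR) and -4.92 for *Eomes* (SE 0.12, adjusted p = 1.53e-16 in edgeR). It was -4.37 for *Fezf2*, -4.29 for *Neurod6*, -4.23 for *Tbr1* and -3.46 for *Neurod2*, with SEs of 0.09 to 0.16. The smallest differences were those of *Bcl11b*, at -2.02 (SE 0.06), and *Emx2*, at -1.50 (SE 0.12, adjusted p = 8.33e-10 in edgeR). In bulk tissue fewer cells of a type and less RNA per cell cannot be told apart.

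**Figure D2:**
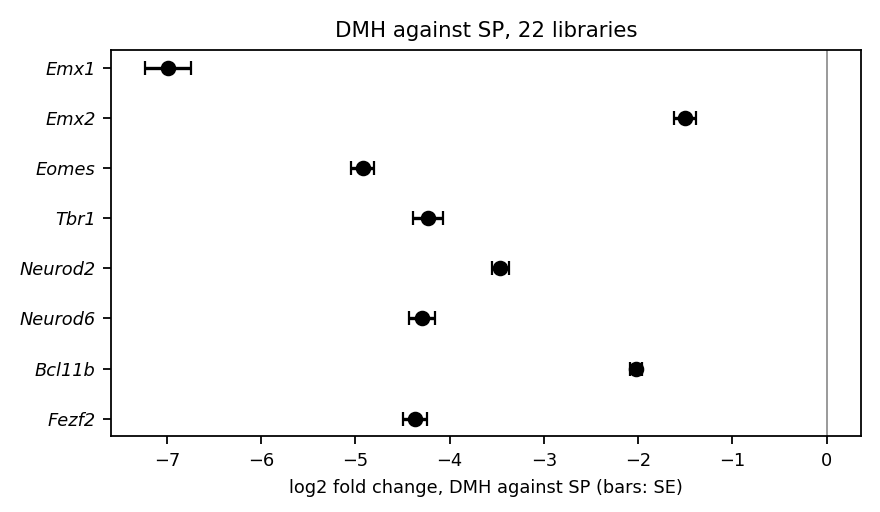
Log2 fold change of DMH against SP for the 8 factors, with SE as bars, from the fit over 22 libraries. All lie below 0, from -6.99 for *Emx1* to -1.50 for *Emx2*.

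Because longer transcripts collect more fragments, levels of different genes were set side by side as mean CPM per kb of exon (± SD, n = 12). In SP the order was *Neurod6* (270.3 ± 87.2), *Neurod2* (108 ± 14.1), *Tbr1* (81.1 ± 11.3), *Bcl11b* (75.6 ± 9.06), *Eomes* (61.1 ± 7.20), *Fezf2* (31.9 ± 4.61), *Emx2* (24.0 ± 5.44) and *Emx1* (20.8 ± 4.19). The neighbours *Tbr1* and *Bcl11b*, and likewise *Emx2* and *Emx1*, differed by less than the spread between libraries. In DMH the order was led by *Bcl11b* (18.7 ± 2.18) and *Neurod6* (13.8 ± 1.81), followed by *Neurod2* (10.3 ± 2.00), *Emx2* (8.46 ± 2.08), *Tbr1* (4.32 ± 1.54), *Eomes* (2.18 ± 0.800), *Fezf2* (1.58 ± 0.653) and *Emx1* (0.246 ± 0.289). *Neurod2* and *Emx2*, and likewise *Eomes* and *Fezf2*, were within each other's spread. *Bcl11b* and *Emx2* thus stood higher in the DMH order than in the SP order.

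Other genes of the same lineage were lower in DMH in most but not all cases. Over all genes tested 5.38% fell and 10.5% rose in DMH. Of 8 pallial progenitor factors beyond the Emx genes, 7 fell and none rose, with a median log2 fold change of -1.67 against 0.00 over all genes tested. *Dmrt3* had a log2 fold change of -4.50 and *Lhx2* one of -1.53, while *Pax6*, which specifies dorsal radial glia but is also expressed in the diencephalon and hindbrain, was at -1.23. Of 8 genes of intermediate progenitors and newborn neurons 5 fell, among them *Sstr2* (-2.61) and *Neurod1* (-1.15), and the median was -1.08. Of 17 projection neuron genes 9 fell and 2 rose, with a median of -1.24. *Slc17a7*, the vesicular glutamate transporter of cortical excitatory neurons, had a log2 fold change of -5.67, and *Zbtb18*, a zinc finger factor of cortical neurons, one of -3.04. The 2 that rose were *Slc17a6*, the vesicular glutamate transporter that subcortical excitatory neurons mainly use (1.23), and *Foxp2* (1.47), a share near that of all genes that rose. Of 15 subpallial and striatal genes, which mark the inhibitory lineage beside the pallium in SP, 8 fell and 2 rose, with a median of -1.06, including *Dlx2* (-2.61) and *Gsx2* (-3.26).

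The promoters of the 8 factors were read from RefSeq (GRCm38.p6, 250 bases before to 50 after the annotated start of transcription, 1 entry for each factor) and searched for 3 motifs that read the same on both strands. The first was GCCNNNGGC, the palindromic consensus bound by AP-2 proteins. It occurred in 2 of the 8, *Emx1* and *Bcl11b*, and in 16.6% of all 32851 promoters in the table. TAATTA, a core bound by homeodomain proteins such as the Emx factors, occurred in *Tbr1* and *Emx2* and in 5.29% of all promoters. CANNTG, the E-box of basic helix-loop-helix proteins such as the Neurod factors, occurred in 4 of the 8 (*Emx1*, *Tbr1*, *Neurod2* and *Neurod6*) and in 72.3% of all promoters. The windows below of 30 bases, 5′ to 3′ on the strand of the gene, show both AP-2 matches, which concern the mutated factor, the pair of TAATTA matches in *Tbr1*, and the E-box nearest to the start in *Neurod2*, with the match in capitals.
Emx1: cgatgttccaGCCCGCGGCtaagcggggtt
Bcl11b: aaaccggccaGCCAGCGGCgagcaacagca
Tbr1: atccTAATTAatgtctatcTAATTAaatta
Neurod2: acgtgccaagccCATATGgcctggcataga
The windows lie at chr6:85187941-85187970 (plus strand), chr12:108003422-108003451 (minus strand), chr2:61804416-61804445 (plus strand) and chr11:98329645-98329674 (minus strand). Their matches begin 20 bases after the RefSeq start for *Emx1* and 27, 33 and 17 bases before it for *Bcl11b*, *Tbr1* and *Neurod2*. The gene spans given above, from GENCODE, begin farther upstream for *Emx1*, *Bcl11b* and *Tbr1*, so these windows lie inside them. A match describes these letters only and not the presence of a bound factor.

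The comparison of mutants with controls asks whether loss of AP-2 beta changed the factors. In SP the ranges of the genotypes overlapped. *Emx1* was at 31.1 to 55.6 CPM in controls (median 50.4) and at 27.3 to 55.4 CPM in mutants (median 44.9). *Eomes* was at 203 to 286 CPM (median 260.0) and at 216 to 310.2 CPM (median 250.3). *Tbr1* was at 399 to 501 CPM (median 424) and at 390.1 to 615 CPM (median 424). The genotypes overlapped for all 8, against 0.15% of the genes tested whose 6 mutants and 6 controls did not. *Neurod2* was at 294 to 411 CPM in controls and 287 to 401 CPM in mutants, *Bcl11b* at 552 to 638 and 544 to 777 CPM, and *Fezf2* at 84.3 to 117 and 81.7 to 129 CPM. *Neurod6* was at 448 to 713 CPM in controls (median 546) and at 429 to 1121 CPM in mutants (median 492), and *Emx2* was at 50.4 to 76.2 CPM (median 71.0) and at 57.4 to 115 CPM (median 76.8). For both genes the upper end of the mutant range was male mutant 1.

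With both sexes in 1 fit, sex as a covariate and the cut-offs used in the study (FDR below 0.2, log2 fold change beyond 0.5 in either direction), none of the 8 factors was called in SP. edgeR called 0 of 17348 genes, or 0.0%. At an unadjusted p under 0.05 there were 873 genes and none of the 8, and DESeq2 called 27 genes and none of the 8. *Emx2* had the largest log2 fold change of the 8, 0.29 (SE 0.15, adjusted p = 0.922 in edgeR), and the other 7 lay between -0.05 and 0.09 with SEs of 0.08 to 0.19. In female SP (3 of 16615 genes called, 0.0181%) the 8 values lay between -0.19 for *Neurod6* and 0.05 for *Emx2*. There *Emx2* was at 75.1, 76.2 and 72.9 CPM in controls and at 77.0 and 77.3 CPM in mutants 1 and 2, and *Eomes* was at 264, 256 and 282 CPM and at 252 and 255 CPM. These 2 factors did not overlap between the genotypes, which was also so for 15.4% of the genes tested, and mutant 3 was at 57.4 CPM for *Emx2* and 216 CPM for *Eomes*. With the replicate number as a block, which is described with the processing, 52 genes and none of the 8 were called in female SP. In male SP (0 of 16562 genes called, 0.0%, 605 at an unadjusted p under 0.05 and 7 by DESeq2) *Emx2* was at 0.47 (SE 0.23) and *Neurod6* at 0.28 (SE 0.29), with adjusted p = 0.967 for both in edgeR. Without male mutant 1, or without male mutant 3 with its few choroid plexus and meninges transcripts, none of the 8 was called either.

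**Figure D3:**
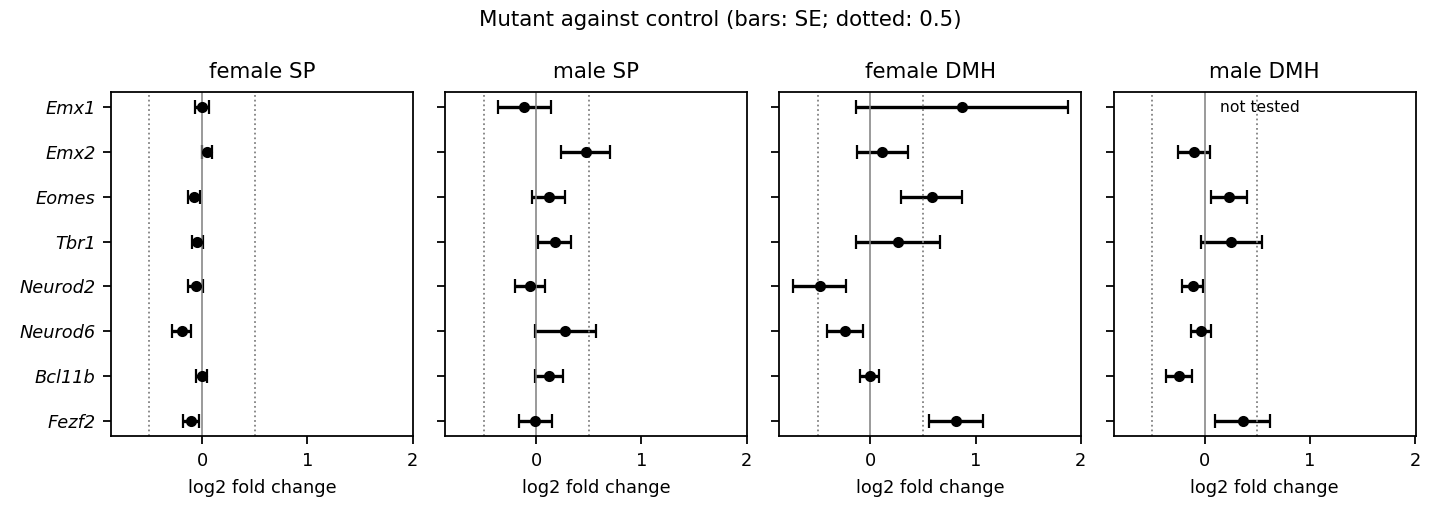
Log2 fold change of mutant against control for the 8 factors in each sex and region, with SE as bars and dotted lines at the fold threshold of 0.5. In female DMH *Emx1* (0.87), *Fezf2* (0.81) and *Eomes* (0.58) lie past the threshold with an FDR that misses 0.2, and *Emx1* was too low to be tested in male DMH.

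In DMH the genotypes overlapped for all 8 factors as well (0.0854% of the genes tested did not overlap). *Fezf2* was at 2.54 to 6.15 CPM in the 6 controls (median 3.61) and at 3.27 to 8.59 CPM in the 6 mutants (median 5.83). *Eomes* was at 5.81 to 11.2 CPM in controls (median 6.67) and at 6.89 to 16.4 CPM in mutants (median 10.4). *Neurod2* was at 22.4 to 38.4 CPM in controls (median 36.2) and at 21.7 to 39.4 CPM in mutants (median 31.1). Thus the median of *Fezf2* and *Eomes* was higher in mutants and that of *Neurod2* lower. The medians of controls and mutants were 21.6 and 23.1 CPM for *Tbr1*, 30.6 and 28.2 CPM for *Neurod6*, 150.0 and 142 CPM for *Bcl11b*, 23.6 and 24.6 CPM for *Emx2* and 0.310 and 0.212 CPM for *Emx1*.

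None of the 8 was called in DMH of both sexes together, where 9 of 17555 genes were called, or 0.0513%. DESeq2 called 51 genes and none of the 8. Of the 8, *Fezf2* came closest, with a log2 fold change of 0.58 (SE 0.21, unadjusted p = 0.0173, adjusted p = 0.331 in edgeR), where 14.9% of the genes tested had an unadjusted p under 0.05. It was followed by *Eomes* at 0.39 (SE 0.18, adjusted p = 0.335 in edgeR) and *Neurod2* at -0.27 (SE 0.15, adjusted p = 0.368 in edgeR). In female DMH *Fezf2* was at 6.15, 4.59 and 3.07 CPM in controls and at 7.66 and 8.59 CPM in mutants 1 and 2, with 5.995 CPM in mutant 3. It was the only factor there without overlap between controls and mutants 1 and 2, which was also so for 26.5% of the genes tested. In that comparison (1 of 16773 genes called, 0.00596%) *Fezf2* was at 0.81 (SE 0.25), *Eomes* at 0.58 (SE 0.29) and *Neurod2* at -0.48 (SE 0.25), with adjusted p from 0.551 to 0.571 in edgeR. *Emx1*, near the detection floor, was at 0.87 (SE 1.01, adjusted p = 0.750 in edgeR). The sum of 4 choroid plexus markers did not overlap between controls and mutants 1 and 2 either. It was at 364, 448 and 452 CPM in controls and at 83.4 and 229.5 CPM in mutants 1 and 2, with 174.5 CPM in mutant 3. Without mutant 3 the 4 markers had a median log2 fold change of -1.12, and none was called. The part of this sum in the values of the factors was not tested. In male DMH (4 of 16962 genes called, 0.0236%) *Fezf2*, *Eomes* and *Neurod2* were at 0.36 (SE 0.26), 0.23 (SE 0.17) and -0.11 (SE 0.10), with adjusted p = 0.870 for each in edgeR. None of the 8 was called for the difference of the genotype effect between sexes (0 of 17348 genes in SP and 0 of 17555 in DMH, 0.0% in both, with 383 and 351 at an unadjusted p under 0.05) or between regions (1 of 18317 genes, 0.00546%). *Fezf2* had the lowest p of them between regions (DMH effect minus SP effect 0.64, SE 0.23, unadjusted p = 0.0128, adjusted p = 1 in edgeR). The test between sexes and the female comparisons take sex from the labels. They were not repeated with female control 2, which carried Y-linked transcripts, counted as male.

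The calls in DMH depended on single libraries. Without female control 1, *Fezf2* (1.07), *Eomes* (0.92) and *Neurod2* (-0.69) passed the thresholds in female DMH, among 1117 genes (6.63% of those tested). Without male mutant 1, *Fezf2* (0.66) passed them in DMH of both sexes, among 533 genes (3.05%). With no filter on low counts, *Fezf2* (0.81) and *Eomes* (0.58) passed in female DMH, among 535 genes (1.81%).

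These 3 factors also stood at other levels in the DMH libraries with few caudal *Hox* transcripts, a division taken from the data and not tested. *Fezf2* was at 5.67 to 8.59 CPM in the 4 libraries with a low *Hox* sum and at 2.54 to 5.995 CPM in the other 8, overlapping through female mutant 3. *Neurod2* was at 21.7 to 28.6 CPM in those 4 and at 31.9 to 39.4 CPM in the other 8, without overlap. *Neurod6* likewise was at 23.3 to 27.6 and 28.8 to 35.3 CPM. *Emx2* was at 27.4 to 39.5 CPM in the 4 libraries and at 17.9 to 24.7 CPM in the other 8. Like these 3 factors, 21.8% of the 17555 genes tested in DMH did not overlap between the 4 libraries and the other 8. *Eomes* was at 10.3 to 13.3 CPM in the 4 and at 5.81 to 7.72 CPM in the other 8 apart from female mutant 3, which was at 16.4 CPM. *Bcl11b* overlapped between them, at 135 to 162 and 139 to 201 CPM, as did *Tbr1*, at 22.5 to 42.0 CPM (median 31.2) and 11.2 to 24.6 CPM (median 19.4). The sum of the diencephalon and midbrain markers was 1426 to 1871 CPM in the 4 and 829 to 1158 CPM in the other 8, and the 8 pallial progenitor factors summed to 350.4 to 411 CPM and 186 to 292 CPM.

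**Figure D4:**
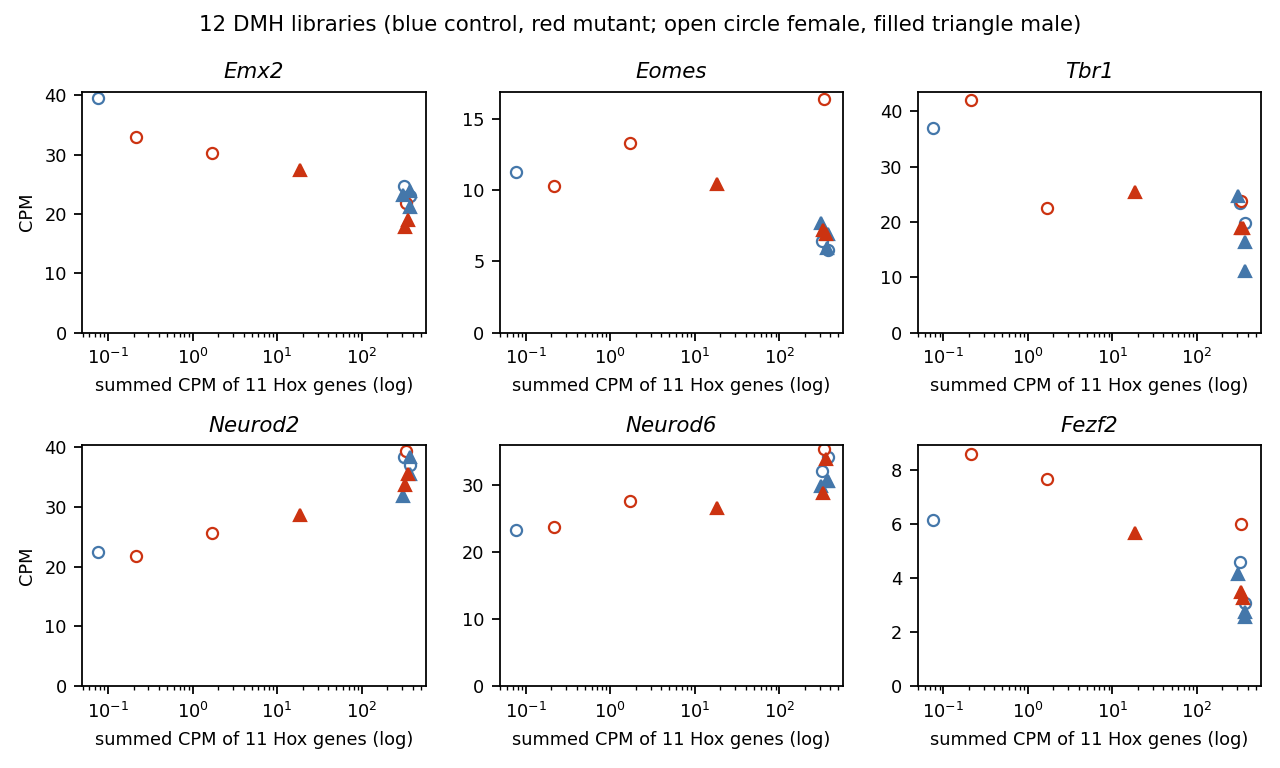
CPM of 6 factors in the 12 DMH libraries against the summed CPM of 11 caudal *Hox* genes on a log axis. The 4 libraries with a low sum (0.0760 to 18.4 CPM) lie above the other 8 for *Emx2* and below them for *Neurod2* and *Neurod6*.

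Both female mutants that entered the test, 1 of 3 male mutants and 1 of 6 controls were among the 4 libraries. Using only DMH libraries with the *Hox* genes leaves male mutants 1 and 3 and 5 controls. No female mutant remained, so the genotype effect of that fit came from the males alone. The log2 fold change was 0.09 for *Fezf2* (SE 0.23), 0.03 for *Eomes* (SE 0.13) and -0.02 for *Neurod2* (SE 0.08). These 3 values were nearer to 0 than in male DMH with all libraries, at 0.36, 0.23 and -0.11. Those of *Emx1* (-1.39, SE 0.52), *Emx2* (-0.31, SE 0.08) and *Bcl11b* (-0.22, SE 0.14) were farther from 0 than in both sexes with all libraries. There they were at -0.09, -0.00 and -0.14. In male DMH with all libraries *Emx2* was at -0.10 and *Bcl11b* at -0.24, and *Emx1* was too low to be tested. With only the *Hox* positive libraries none of the 8 was called (adjusted p = 1.00 for each in edgeR). The difference between regions was as large with only these DMH libraries and the embryo as a block, with all 8 called and log2 fold changes from -7.36 for *Emx1* to -1.68 for *Emx2*.

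Male DMH control 3 was the DMH library with the highest *Bcl11b* (201 CPM against 135 to 162 CPM) and subpallial and striatal sum (709 CPM against 462 to 675 CPM). *Emx1* (0.531 CPM), *Tbr1* (24.6 CPM) and *Neurod6* (29.8 CPM) were within the range of the other libraries there. The part of telencephalic tissue in its levels was not tested.

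Male SP mutant 1 departed from the other 11 SP libraries in 7 of the 8 factors. *Neurod6* was at 1121 CPM there and at 429 to 713 CPM in the others. *Emx2* was at 115 CPM against 50.4 to 77.3 CPM, and *Tbr1* at 615 CPM against 390.1 to 501 CPM. *Emx1* was the exception in direction, at 27.3 CPM against 31.1 to 55.6 CPM, and *Neurod2*, at 381 CPM, was within the others' range (287 to 411 CPM). The departure was not particular to the factors: 66.3% of the 11403 genes with a mean of at least 5 CPM in SP were above or below all other SP libraries in this one, against 3.92 to 27.9% in any other. Across these genes its log2 deviation from the median of the SP libraries ran with the GC content of the annotated transcripts (Pearson's r = -0.62 and Spearman's rho = -0.63 across genes, which are not independent replicates), and r was -0.18 to 0.39 in the other 11. Of the 8 factors, *Neurod6* had the lowest GC content (41.9%) and the largest positive difference (1.08 on the log2 scale), and *Emx1* had the highest (62.6%) and the only negative difference (-0.85). The remaining 6 lay between, at 49.1 to 58.7% GC and 0.23 to 0.65. Over all those genes the median GC content was 49.8%. Fragments not counted on genes made up 25.9% of this library, the highest of the 24. The part of GC content in its levels was not tested.

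**Figure D5:**
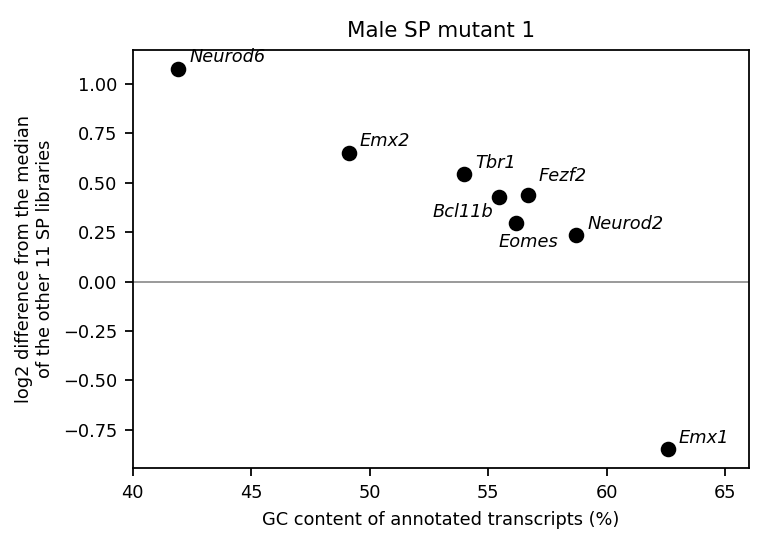
Log2 difference of male SP mutant 1 from the median of the other 11 SP libraries (pseudocount 0.5 CPM) against the GC content of the annotated transcripts, 1 point for each factor. The difference goes from 1.08 for *Neurod6* at 41.9% GC to -0.85 for *Emx1* at 62.6% GC.

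Across the 12 SP libraries the levels of several factors rose and fell together. Over 28 pairs of the 8 factors on the log2(CPM + 0.5) scale, with permutation tests adjusted over the 28, 12 pairs passed 0.05 by Pearson's r and 10 by Spearman's rho. The share of passing pairs among other genes was not measured, so these counts cannot be called particular to the factors. The 10 pairs of the postmitotic factors *Tbr1*, *Neurod2*, *Neurod6*, *Bcl11b* and *Fezf2* all passed by r and 9 of them by rho. These permutations exchange libraries of the 2 sexes, so a difference between sexes counts as a shared change. With levels centred on the mean of each sex and permuted within sex, 8 of the 28 pairs and 5 of these 10 passed by r (4 and 3 by rho). The r of the 10 pairs was then 0.57 to 0.92, against 0.70 to 0.94 uncentred, and some pairs had a higher r, such as *Eomes* with *Fezf2* (0.61 and then 0.80). This centring takes sex from the labels, and with female control 2 counted as male 7 of the 28 and 5 of the 10 passed by r (9 and 8 by rho). Centred on the means of sex and genotype, with 3 libraries a group, 2 of the 28 and 1 of the 10 passed by r (3 and 2 by rho), while r of the 10 pairs was 0.62 to 0.96. *Neurod6* and *Fezf2* had r = 0.93 and rho = 0.94 (n = 12, permutation p = 1e-05 for both, the smallest that the permutations can give, adjusted permutation p = 0.00028), and r was 0.85 without the 2 libraries farthest from the median of *Neurod6*. Centred on sex, their r was 0.90 (adjusted permutation p = 0.0028), or 0.92 with female control 2 counted as male (adjusted permutation p = 0.00322). Centred on sex and genotype it was 0.94 (adjusted permutation p = 0.0624). *Eomes* and *Tbr1*, of intermediate progenitors and of the neurons that follow them, had r = 0.78 (adjusted permutation p = 0.00567). Their r was 0.66 without the 2 farthest libraries. It was 0.90 both centred on sex as labelled and centred on sex and genotype (adjusted permutation p = 0.00084 and 0.0211). With female control 2 counted as male it was 0.85 centred on sex (adjusted permutation p = 0.00322). Male mutant 1 decided 2 relations of *Emx1*: *Emx1* and *Emx2* had r = -0.04 over 12 libraries (adjusted permutation p = 0.915) and r = 0.91 without it (rho = 0.68, adjusted permutation p = 0.00191 and 0.0643, n = 11), and *Emx1* and *Eomes* had r = 0.17 and then 0.88. *Emx2* and *Eomes* passed by r with it (0.81, adjusted permutation p = 0.00567) and without it (0.72, adjusted permutation p = 0.0323), but not by rho. Without female mutant 3, 13 pairs passed by r and 8 by rho, with all 10 of the postmitotic factors by r. The omissions and the centring were chosen after the levels were seen. Without male mutant 1, 13 pairs passed by r and 8 by rho, and *Tbr1* with *Bcl11b* did not (r = 0.63, adjusted permutation p = 0.0855). Within these 11 libraries without male mutant 1 *Emx1* had r of -0.34 to 0.38 with the 5 postmitotic factors, none of which passed, whereas *Eomes* and *Tbr1* passed by r (0.68, adjusted permutation p = 0.0432). The values share libraries, and female SP mutant 3 and male SP control 1, where the diencephalon and midbrain markers were highest, had the lowest *Emx1* (39.0 and 31.1 CPM) and *Eomes* (216 and 203 CPM) of the 11. The part of that tissue was not tested.

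The genes whose SP pattern was most like that of a factor were found by Pearson's r among 11395 other genes with a mean of at least 5 CPM over the 12 SP libraries, without centring on sex. For *Eomes* they were *Rnd2*, *Sept8* and *Polr3g* (r = 0.93, 0.93 and 0.92), for *Tbr1* *Efnb2*, *Cnih4* and *Prdm8* (0.97, 0.95 and 0.95), for *Neurod2* *Hpca*, *Zbtb18* and *Ndrg1* (0.94, 0.94 and 0.94) and for *Fezf2* *Prdm8*, *Nfix* and *Cyth3* (0.97, 0.97 and 0.95). For *Neurod6* they were *Setd7*, *Calcoco1* and *Gm29260* (0.99, 0.97 and 0.97), for *Bcl11b* *Sox11*, *Gm3854* and *Stk32b* (0.97, 0.97 and 0.96), for *Emx1* *Acaa2*, *Slc16a1* and *Igsf8* (0.98, 0.97 and 0.97) and for *Emx2* *Anp32b*, *Pdcd4* and *Tmem123* (0.98, 0.97 and 0.97). Without female mutant 3 the nearest gene was another one for *Emx2* (*Cox6c*) and *Neurod2* (*Ndrg1*). Without male mutant 1 only *Sept8* for *Eomes* and *Efnb2* for *Tbr1* stayed among the 3 nearest genes of their factor. The nearest genes were then *Masp1* for *Eomes*, *Efnb2* for *Tbr1*, *Bcl11a*, a zinc finger factor of cortical projection neurons, for *Neurod2*, *Dok5* for *Neurod6*, *Morn4* for *Bcl11b*, *Wwc1* for *Fezf2*, *Nek6* for *Emx1* and *Fzd9* for *Emx2* (r = 0.95 to 0.99, n = 11).

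No gene of the lists of pallial progenitor factors, intermediate progenitors and newborn neurons, projection neurons, or subpallial and striatal genes was called between genotypes in SP or DMH, in either sex or in both together. At most 0.0513% of the genes tested were called in these comparisons. The study differs in female DMH: it lists *Nr2e1*, *Dlx2* and *Dlx5*, which belong to these lists, as upregulated in mutants. It also reported many more genes there than the 1 called here at the same cut-offs. The cause of this difference was not tested. In SP of both sexes the medians of these lists were 0.13, 0.05, -0.05 and 0.27 on the log2 scale, against -0.01 over all genes tested, and in DMH of both sexes 0.34, 0.17, 0.04 and 0.07 against 0.00. In DMH the diencephalon and midbrain marker *Dmbx1*, a homeobox gene, was called higher in mutants (0.81, SE 0.08, adjusted p = 0.00217 in edgeR, both sexes together), and it was the only called gene of its list of 8. It was at 16.4 to 28.1 CPM in the 6 controls and at 29.1 to 46.0 CPM in the 6 mutants, without overlap. Of the 5 mutants tested 3 had a low caudal *Hox* sum, and the diencephalon and midbrain markers were higher in those libraries. With only the *Hox* positive libraries no female mutant remained, so the fit of both sexes and that of male DMH held the same contrast between males. *Dmbx1* was at 0.80 in each. In the fit of both sexes it was not called (SE 0.13, adjusted p = 0.278 in edgeR), and in that of male DMH it was (SE 0.11, adjusted p = 0.0670 in edgeR).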

How the data were processed

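Total RNA was taken from the SP and DMH of 12 embryos. Polyadenylated RNA was made into stranded libraries (dUTP method) and sequenced as read pairs. Per the labels, the authors trimmed reads with cutadapt 2.4, aligned them with STAR 2.6.1d to mm10 (GRCm38.p6) and deposited raw counts of fragments per gene, 1 table per library. The annotation release is not given in the sources used here. The column of the strand these libraries read was used, and 4 lines that name no gene were left out (17.3 to 25.9% of fragments). 1 count column, of the opposite strand, entered no fit. Symbols, coordinates and GC content came from GENCODE vM21 (54409 of 54446 identifiers had a symbol), and promoters from RefSeq. No protein sequences were used here. The libraries of a group came from different embryos, and the lowest chi-square per gene between 2 libraries of a group was 9.62 over 24 pairs, so none was a copy.

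The quasi-likelihood test of edgeR 4.0.16 (R 4.3.3), with TMM factors, the filterByExpr filter and a robust fit, was run across all genes, on 22 libraries without female mutant 3. SEs are the absolute log2 fold change over the square root of F. DMH was compared with SP over the means of the 8 groups, without a block in the main fit. The 2 libraries of an embryo pair them, since the study took both regions from each embryo, and their deviations from group means correlated across genes (r = 0.15 to 0.76, 12 pairs). Numbers of mutants and controls name different embryos. They correlated over 0.1 for each of the 3 numbers only in female SP (0.11 to 0.26, mutant 3 included), so the blocked count is given there. That fit leaves out mutant 3, so control 3 is alone in its block and few residual degrees of freedom remain. DESeq2 1.42.0, RLE size factors, no filter, unstranded counts, other thresholds, female mutant 3 and each library left out were alternatives. Those on caudal *Hox* genes, the sex of female control 2, and the omission of male SP mutant 1 or female SP mutant 3 and the centring on sex or genotype in correlations were added after seeing the data. The methods were tested on simulated data. Correlations used 100000 permutations. Python 3.11.15 with matplotlib 3.10.9 drew the figures.

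The 8 factors and all gene lists were chosen with earlier results of these data known. Named genes are the 8, *Tfap2b*, the 3 genes most like each factor and, for each list, among the 4 of each direction with the smallest p past the thresholds. Some genes that this rule names are not reported here. The floor of 3 counts covers counting error only.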

Additional observations from a re-analysis of the deposited data

Results flagged for a closer look

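Among 36 groups of 6 libraries (8 factors and *Tfap2b*, in each region and genotype with both sexes together), 6 held a library far from the others by Dixon's criterion, and chance alone flags about 1 in 20 groups. In SP mutants these were *Neurod6* (1121 CPM) and *Emx2* (115 CPM), both in male mutant 1. In DMH controls they were *Emx2* (39.5 CPM) and *Eomes* (11.2 CPM) in female control 1, and *Bcl11b* (201 CPM) in male control 3. In DMH mutants it was *Tbr1* (42.0 CPM) in female mutant 2. Female control 1 and female mutant 2 are 2 of the 4 DMH libraries with few caudal *Hox* transcripts. Groups of 3 libraries were too small for this criterion.

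The genotype effect on *Tfap2b* differed between regions, by -2.81 on the log2 scale (DMH effect minus SP effect, SE 0.17, adjusted p = 2.38e-08 in edgeR). It was the only gene called for that difference.

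Counts on the strand opposite to each factor, which no comparison used, were found for all 8 in SP. They made up 3.32% of the fragments on both strands for *Neurod2*, 2.85% for *Emx2*, 2.43% for *Emx1*, 0.970% for *Neurod6*, 0.937% for *Bcl11b*, 0.867% for *Eomes*, 0.71% for *Fezf2* and 0.594% for *Tbr1*, summed over 12 libraries. Over all genes, counts on the opposite strand came to 4.59 to 5.55% of those on the strand used in these libraries, so each factor was below the general level. Antisense genes are annotated opposite *Emx2* (*Emx2os*) and *Eomes* (*Gm33460*).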

How the results depend on the processing

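The lower level of all 8 factors in DMH held in each of the 30 alternatives for that comparison (240 of 240 fits), with 2810 to 3086 genes called when 1 library was left out, 2988 genes with the embryo as a replicate block and 6733 at an FDR under 0.2 and a log2 fold change over 0.5. For the factors between genotypes, 1 of the 704 other fits changed sign and 6 passed the thresholds, all in DMH and named in the report. A change of sign was counted where the value of the main comparison exceeded its SE. Correlations of the factors across SP libraries passed in 12 of 28 pairs, in 13 without male mutant 1 or without female mutant 3, in 8 centred on sex (7 with female control 2 as male) and in 2 centred on sex and genotype. The value that changed sign was *Neurod6* in DMH of both sexes, at -0.12 (SE 0.10) with all libraries and 0.045 (SE 0.08) with only the caudal *Hox* positive ones, the latter within its SE of 0. The latter came from the males alone, as no female mutant remained.

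Counts of all genes called moved more. Without a filter on low counts they were 25 in female SP, 535 in female DMH (with 2 of the 8 factors), 1 in male SP, 17 in male DMH, 12 in SP of both sexes, 1 and 2 for genotype by sex in SP and DMH, and 4 for genotype by region. By DESeq2 they were 6, 76, 7, 13, 27, 3, 10 and 8 in the same order, and 51 in DMH of both sexes. Unstranded counts gave 4 in female DMH, 4 in DMH of both sexes and 1 for genotype by sex in DMH. An FDR under 0.05 gave 1 in female SP and 2 in DMH of both sexes. With female mutant 3 they were 0, 1 and 5 in female SP, SP of both sexes and DMH of both sexes. With the caudal *Hox* positive libraries, where only male mutants remained, they were 7 in male DMH and 4 in DMH of both sexes. They were 5 in DMH of both sexes with female control 2 counted as male. With the replicate number as a block they were 52, 35 and 7 in female SP, female DMH and male DMH. Same-numbered mutants and controls had correlated deviations of -0.23 to 0.62, and the block changed no call of the 8 factors. The causes were not tested.

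With 1 library left out in turn, the lowest and highest counts of genes called were 1 to 6 in female SP, 0 to 1117 in female DMH (0 to 3 of the 8 factors), 0 to 8 in male SP, 3 to 16 in male DMH, 0 to 3 in SP of both sexes, 2 to 533 in DMH of both sexes (0 to 1 of the 8), 0 to 1 and 0 to 6 for genotype by sex in SP and DMH, and 1 to 7 for genotype by region. Where 1 female mutant remained, it was assumed to vary like the other libraries. No fit of female DMH with only *Hox* positive libraries was run. Female mutants 1 and 2 had a low *Hox* sum, and female mutant 3, at 334 CPM, was left out of the main fits. *Emx1* was near the detection floor in DMH, with 3 counts in its lowest library and SEs of 1.01 in female DMH and 0.62 in DMH of both sexes. Female DMH mutants 1 and 2 were at 1.32 and 0.107 CPM. The parts of depth and of the spread between libraries in these SEs were not tested.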

Other observations

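Genes of neighbouring cell groups of the pallium were found in both directions between regions, where 10.5% of all genes tested rose and 5.38% fell in DMH. Of 6 genes of Cajal-Retzius neurons, the early reelin-producing cells of the cortical surface, 3 rose in DMH and 1 fell: *Lhx5* (log2 fold change 2.88), *Ndnf* (1.38) and *Nhlh2* (1.37) rose, and *Trp73*, a relative of p53 that marks these neurons, fell by 2.92 on the log2 scale, from a mean of 24.8 CPM in SP to 3.32 CPM in DMH. Of 5 genes of the medial pallium and cortical hem, with a median of -0.67, 2 rose (*Lmx1a* at 1.76 and *Lef1* at 1.24), and *Wnt3a*, a signal of the hem, fell by 1.44. None of these 11 genes was called between genotypes in either region. Of all genes tested, 0.0% were called in SP and 0.0513% in DMH of both sexes.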
